A study of Mus musculus with 10 samples.

Results

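The 7 genes described here were chosen because their RNA was lost or nearly lost in germ cells of GRTH knock-in (KI) mice: Calml3, 1700063D05Rik, 1700084D21Rik, Dscaml1, Lrrc57, 1700008P02Rik and Klrb1. They are 7 of the 15507 genes listed, picked by symbol for their low values in KI, so their difference between KI and WT is given as a description with no test. All 7 were among the 15389 genes that passed the filter on low reads. Germ cells were dispersed from the testes of 5 wild-type (WT) and 5 homozygous KI mice, each 45 days old, and each mouse gave 1 RNA-Seq library. GRTH is encoded by Ddx25, and the KI line bears a human copy of that gene with the mutation R242H. The labels name no other treatment of either group, and whether WT and KI mice were littermates is not given.

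GRTH is a DEAD-box RNA helicase of the testis that carries messenger RNAs out of the nucleus of male germ cells and takes part in their storage and translation. Spermatids make many messengers while they are round, store them, and use them after their chromatin has condensed. KI mice lack the phosphorylated form of GRTH, and their round spermatids do not elongate. The products of the 7 genes have little in common by name. Calml3 encodes a calmodulin-like calcium-binding protein, Dscaml1 an immunoglobulin-type cell adhesion protein best known from neurons, Lrrc57 a protein with leucine-rich repeats, and Klrb1 a C-type lectin receptor of the natural killer cell family. 1700008P02Rik is annotated as protein coding and is known by its clone name only, while 1700063D05Rik and 1700084D21Rik are annotated as long intergenic noncoding RNAs.

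The genes lie on 5 chromosomes (build mm10). Calml3 is on the minus strand of chromosome 13 (3802893 to 3804318) and has 1 block of exons in GENCODE. 1700084D21Rik is on the plus strand of the same chromosome (113136076 to 113144012) with 3 exon blocks. 1700063D05Rik (chromosome 9, 41206155 to 41217627, plus strand) and Dscaml1 (chromosome 9, 45430353 to 45753713, plus strand) share their chromosome with the targeted gene Ddx25, at distances of 5.65 Mb and 9.87 Mb from it. Lrrc57 is on chromosome 2 (120604238 to 120609508, minus strand), 1700008P02Rik on chromosome 3 (6615413 to 6620443, minus strand) and Klrb1 on chromosome 6 (128706096 to 128723097, minus strand).

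The 250 bases before the start of 4 of the genes are shown, because what remained of these genes in KI ranged from 1 read in all to 59.9% of the WT level in 1 library, and 2 of them encode no protein. RefSeq (GRCm38.p6) gave a start window for 5 of the 7 genes. Each sequence is read 5′ to 3′ on the strand of its gene: 1700063D05Rik at chr9:41205905-41206154, plus strand, 1700084D21Rik at chr13:113135826-113136075, plus strand, 1700008P02Rik at chr3:6620444-6620693, minus strand, and Klrb1 at chr6:128723098-128723347, minus strand. Capitals mark matches on either strand to the letters of the CCAAT box (CCAAT or ATTGG), the motif searched that was found in these windows.
1700063D05Rik: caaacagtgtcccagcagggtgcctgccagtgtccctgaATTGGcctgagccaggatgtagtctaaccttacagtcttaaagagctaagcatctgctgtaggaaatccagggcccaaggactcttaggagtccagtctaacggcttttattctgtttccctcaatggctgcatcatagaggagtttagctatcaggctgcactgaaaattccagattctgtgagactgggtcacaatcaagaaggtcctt
1700084D21Rik: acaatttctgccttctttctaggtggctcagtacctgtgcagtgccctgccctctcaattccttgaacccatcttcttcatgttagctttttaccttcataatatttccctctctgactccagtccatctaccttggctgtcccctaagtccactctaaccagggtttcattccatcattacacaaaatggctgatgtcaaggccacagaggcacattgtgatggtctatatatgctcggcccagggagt
1700008P02Rik: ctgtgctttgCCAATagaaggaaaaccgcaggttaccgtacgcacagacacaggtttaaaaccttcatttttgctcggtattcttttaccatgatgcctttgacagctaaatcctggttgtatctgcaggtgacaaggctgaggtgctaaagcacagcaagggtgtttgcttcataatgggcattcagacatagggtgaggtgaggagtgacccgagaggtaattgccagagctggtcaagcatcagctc
Klrb1: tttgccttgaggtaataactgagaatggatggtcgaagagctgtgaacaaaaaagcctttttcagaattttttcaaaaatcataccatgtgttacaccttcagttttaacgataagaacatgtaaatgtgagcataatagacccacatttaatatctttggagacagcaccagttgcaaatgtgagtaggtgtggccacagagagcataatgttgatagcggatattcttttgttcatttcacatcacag

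The CCAAT letters began 211 bases before the RefSeq start of 1700063D05Rik and 240 bases before that of 1700008P02Rik. GENCODE places the start of 1700063D05Rik at 41192446, so the bases shown for it lie inside its GENCODE span. Such letters were present in 37.4% of the 32851 start windows, each of 300 bases. The cAMP response element, TGACGTCA, was in none of the windows of the 5 genes and in 1.79% of all windows. Its first 5 letters, TGACG or on the other strand CGTCA, were found in windows of Lrrc57 alone among the 5, at 62 bases before its first start, and in 20.8% of all windows. TATAA or TTATA was in none of the 5 genes' windows and in 24.9% of all. Calml3 and Dscaml1 had no window.

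Total reads on genes ran from 13323024 to 16422347 in WT and from 12722086 to 15500582 in KI, so depth did not separate the genotypes. Values are normalized counts, which are reads on a gene divided by the size factor of the library. A count of 3 reads in a library, taken as the limit of detection, was worth 2.61 to 3.62 normalized counts. Libraries 1 to 3 of both genotypes parted from libraries 4 and 5 on the second principal component (9.75% of the variance), with scores of 2.82 or more against -6.44 or less. What made the sets differ is not given in the labels. Results are therefore given for both sets, called libraries 1 to 3 and libraries 4 and 5. Among the 15389 genes tested, 944 rose and 1265 fell in KI by 1.5-fold or more at an adjusted p under 0.05 (limma). All 12 markers of elongating and condensing spermatids were among the genes that fell, with a median difference of -2.61 (log2). In bulk RNA, fewer cells of a type and less RNA per cell cannot be told apart.

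The targeted gene was read first. Ddx25 had 7615, 7782, 5198, 11101 and 9458 normalized counts in WT 1 to 5, and 146, 194, 161, 2.88 and 1.84 in KI 1 to 5. The KI libraries were all far below the WT libraries, and the remainder was in KI 1 to 3, whereas KI 4 and 5 held 3 and 2 reads. Reads of the human gene were not analysed here.

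Calml3 was the gene with no read in any KI library. Its normalized counts were 61.7, 55.5, 68.8, 18.1 and 25.4 in WT 1 to 5. WT 4 and 5 were the low libraries of WT. Against 3 reads per library, the KI level was at least 16.4-fold lower than the WT mean of 45.9 ± 22.7 (SD, n = 5). Within libraries 1 to 3 the bound was at least 22.3-fold, and within libraries 4 and 5, where WT held fewer reads, at least 7.7-fold.

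1700063D05Rik held 1 read in KI in all, in KI 4, and none in the other 4 KI libraries. WT 1 to 5 had 167, 177, 141, 176 and 185 normalized counts, which relative to its mean is the narrowest spread of the 7 genes in WT (169 ± 16.9, SD, n = 5). From 802 WT reads and 1 KI read, the KI level was 0.109% of WT, with a 95% exact interval of 0.00276% to 0.61%. This interval and those below cover counting error only. This noncoding RNA was thus abundant enough for a level of 1% of WT to have been seen over the 5 libraries together, although not in a single library, where 3 reads stood for 1.53% to 1.91% of WT.

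1700084D21Rik, the other noncoding RNA, was low but detected. Its normalized counts were 151, 156, 204, 124 and 120 in WT 1 to 5, and 14.2, 6.95, 15.4, 3.85 and 1.84 in KI 1 to 5. The groups did not overlap, and KI 5, with 2 reads, was under the limit of detection. Pooled over libraries, KI held 5.64% of the WT level (95% exact interval 4.07% to 7.62%).

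Dscaml1 had 62.8, 82.1, 77.3, 61.2 and 73.4 normalized counts in WT 1 to 5. KI 1 to 5 had 7.08, 5.21, 8.24, 4.81 and 5.52. All 5 KI libraries were above the limit of detection, by a few reads each (5 to 8 reads), and far below WT. KI held 8.65% of the WT level (5.86% to 12.4%).

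Lrrc57 had the most reads of the 7 genes in both genotypes. Its values were 3847, 3845, 4286, 2434 and 2389 normalized counts in WT 1 to 5, and 325, 323, 332, 306 and 226 in KI 1 to 5. WT 4 and 5 were lower than WT 1 to 3, KI 5 was the lowest KI library, and no KI library came near any WT library. With 1625 reads in KI against 15518 in WT, its level of 9.17% of WT was the most precisely measured (8.7% to 9.65%).

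1700008P02Rik had 447, 524, 464, 223 and 290 normalized counts in WT 1 to 5, and 43.4, 40.8, 32.9, 46.2 and 17.5 in KI 1 to 5. WT 4 and 5 were again the low WT libraries, while KI 4 was the highest KI library. KI held 9.51% of the WT level (8.17% to 11%).

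Klrb1 has close paralogs on the same chromosome, and the counting model used can divide shared reads among genes. The values recovered were whole reads, and whether divided reads had been rounded is not given. Whether reads of Klrb1 were divided is therefore not known, and its counts are uncertain to that extent. Klrb1a, Klrb1b, Klrb1c, Klrb1f and Klrb1-ps1 had no row. Klrb1 did not share the pattern of the other genes, and "nearly lost" describes it in KI 4 and 5 only. It had 70.1, 77.5, 68.8, 33.1 and 40.5 normalized counts in WT 1 to 5. In KI 1, 2 and 3 it had 27.4, 36.5 and 43.2, and in KI 4 and 5 it had 0. KI 2 and 3 were above WT 4, so the genotypes overlapped. Within libraries 1 to 3, where they did not overlap, KI held 49% of the WT level (38.6% to 62.1%). Within libraries 4 and 5, KI was at least 13-fold lower than the WT mean of 36.8.

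**Figure D1:**
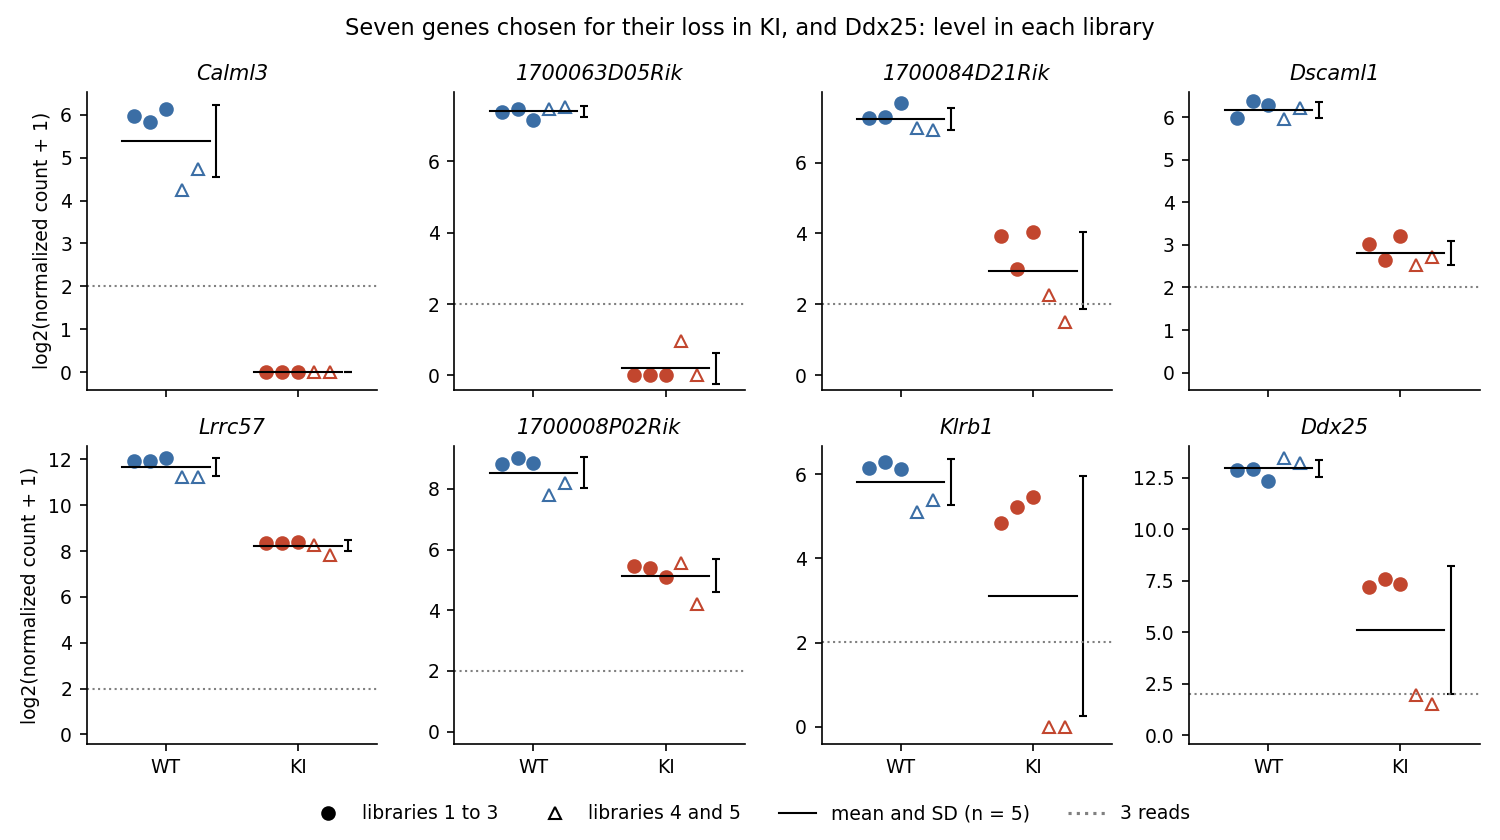
Level of each of the 7 genes and of Ddx25 in every library, as log2(normalized count + 1), with WT in blue and KI in red, filled circles for libraries 1 to 3 and open triangles for libraries 4 and 5. Black lines are the mean and SD over 5 libraries and the dotted line marks 3 reads. Calml3 and 1700063D05Rik lie at or near 0 in KI, and Klrb1 and Ddx25 are split between the library sets.

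On the scale of log2(normalized count + 1), the fitted differences between KI and WT were -7.21 ± 0.27 (SE, n = 5 per group) for 1700063D05Rik, -5.38 ± 0.42 for Calml3 and -4.27 ± 0.40 for 1700084D21Rik. They were -3.44 ± 0.17 for Lrrc57, -3.40 ± 0.27 for 1700008P02Rik, -3.35 ± 0.22 for Dscaml1 and -2.70 ± 0.97 for Klrb1. Their median was -3.44, also with Calml3 set at its bound of -4.04, and the median of all genes tested was 0.03. The fitted values depended on the number added before the logarithm, least for Lrrc57 and 1700008P02Rik. With 10 in place of 1, Calml3 came to -2.37, 1700063D05Rik to -4.13, 1700084D21Rik to -3.17, Dscaml1 to -2.33 and Klrb1 to -1.40. With 0.1, Calml3 came to -8.66, 1700063D05Rik to -10.04 and Klrb1 to -4.03. The fits on reads gave -1.43 (edgeR) and -1.44 (DESeq2) for Klrb1.

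In the comparison that chose them, 6 of the 7 genes passed the thresholds for lower expression in KI, against 8.22% of all genes tested, and 14.4% passed in either direction. Klrb1 was the exception. With the replicate number as a block, Klrb1 passed too, as it did within each library set. Every KI library was below every WT library for 6 of the 7 genes, and this held for 10.9% of all genes tested. These shares only describe how the genes were chosen.

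**Figure D2:**
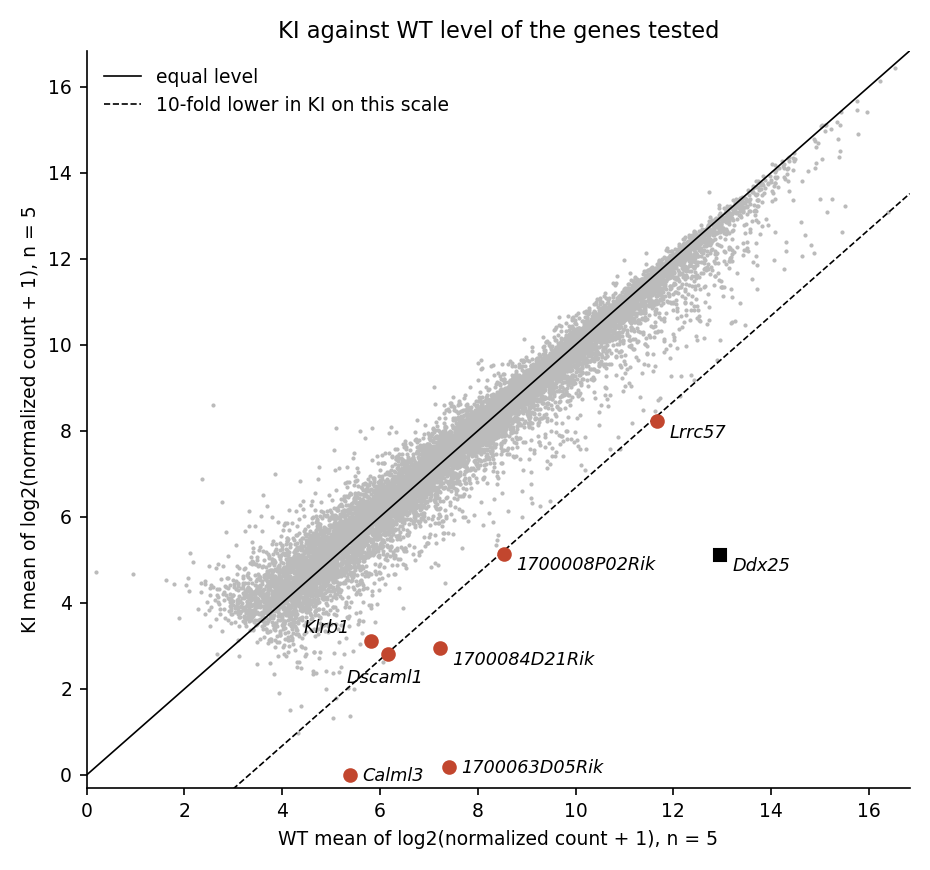
Mean KI level against mean WT level of the 15389 genes tested (grey), each as the mean over 5 libraries of log2(normalized count + 1). The solid line marks equal levels and the dashed line a level 10-fold lower in KI on this scale; 6 of the 7 genes (red) lie on or below the dashed line and Klrb1 lies above it, while Ddx25 is the black square.

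Ordered by the ratio of the mean KI count to the mean WT count, Calml3 (0%) and 1700063D05Rik (0.114%) were the lowest of all genes tested, followed by Ddx25 (1.23%). The others were 5th (1700084D21Rik, 5.6%), 11th (Dscaml1, 8.65%), 13th (Lrrc57, 9%) and 14th (1700008P02Rik, 9.29%), and Klrb1 was 312th (37%). The first gene after 1700008P02Rik was Gm5893, at 9.74%, so no gap set them apart from the next gene. Apart from Ddx25, 7 further genes lay among the first 14: Tmod4, an actin filament capping protein of muscle, at 5.44%, Prokr1, a prokineticin receptor, at 6.74%, Gm28881 at 7.4%, 4930552N02Rik at 7.79%, Olfr733, an olfactory receptor, at 8.27%, Nfe2, an erythroid transcription factor, at 8.44%, and Cd164l2 at 8.99%. Their WT means were 19.4 to 67.3 normalized counts, below the 71.3 of Dscaml1. Of the chosen genes, Calml3 (45.9) and Klrb1 (58) had WT means within this range. At or under the ratio of Klrb1 there were 305 genes other than the 7.

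Levels were compared between genes in WT as reads per kilobase of GENCODE exons, scaled to library depth (RPKM). Lrrc57 was highest of the 7 genes, at 94.2 ± 23.1 RPKM (SD, n = 5), above 95.5% of the 15241 genes with a length. Ddx25 came to 74.7 ± 21.5, but its GENCODE exons start at 35536647, outside the deposited span, which starts at 35541848. Its RPKM may therefore be too low, and it was not ranked against Lrrc57. GENCODE also reaches beyond the deposited span for 1700063D05Rik and Dscaml1, so their RPKM may be too low as well. 1700008P02Rik followed at 31 ± 9.36 and 1700084D21Rik at 21.3 ± 4.45. These neighbours in the order overlapped in their ranges across libraries, although 1700008P02Rik was the higher in each of the 5 libraries. 1700063D05Rik was at 6.95 ± 0.78 and stood clear of both of its neighbours in the order. Klrb1 (2.57 ± 0.821) and Calml3 (2.01 ± 0.972) overlapped in range, although Klrb1 was the higher in each of the 5 libraries, and Dscaml1 was lowest, at 0.501 ± 0.0547, above 14% of genes. The 7 genes thus ranged from near the bottom to near the top of expression in WT.

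Libraries 1 to 3 were then set beside libraries 4 and 5. The genes were picked on the values of all 5 KI libraries, zeros of Klrb1 included, so low KI values in both sets are part of the choice and no independent check of it. All 7 genes were lower in KI within both sets, which the choice favoured. The difference of the KI effect between the sets was tested as genotype by library set (limma). Of the 7 genes, 1 passed: the KI effect on Klrb1 in libraries 4 and 5 differed from that in libraries 1 to 3 by -4.22 ± 0.46 (log2, SE), at an adjusted p of 0.000402. With 10 in place of 1 added before the logarithm it did not pass (-1.36, adjusted p = 0.0707), and it passed with edgeR (adjusted p = 0.0139). The zeros in KI 4 and 5 helped to choose Klrb1, so these p-values are no independent support. Over all genes, 0.247% (38) passed this test, and the number ranged from 2 to 429 with 1 library left out and was 1199 with the replicate block, so it is a loose background. Ddx25 was another, at -6.25 ± 0.25 (adjusted p = 1.12e-10).

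For Dscaml1 the level remaining in KI was 9.19% of WT (95% exact interval 5.63% to 14.3%) in libraries 1 to 3 and 7.66% (3.74% to 14.1%) in libraries 4 and 5. Its difference between sets was -0.20 ± 0.46 (log2, SE, adjusted p = 0.876). For Lrrc57 it was 8.19% (7.68% to 8.72%) and 11% (10.1% to 12%), and these counting intervals did not overlap. The difference of 0.41 ± 0.17 did not pass the limma test (adjusted p = 0.225). For 1700008P02Rik it was 8.25% (6.82% to 9.9%) and 12.2% (9.35% to 15.8%), a difference of 0.48 ± 0.40 (adjusted p = 0.596). KI 4, at 18% of the WT mean of its set, stood above KI 5, at 6.82%.

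For 1700084D21Rik the remainder was 7.09% (4.98% to 9.85%) in libraries 1 to 3 and 2.31% (0.841% to 5.11%) in libraries 4 and 5, where KI held 6 reads in all. The difference of -1.29 ± 0.48 did not pass (adjusted p = 0.197). 1700063D05Rik was at least 58.1-fold lower in libraries 1 to 3, with no read, and held 0.26% of WT (0.00657% to 1.46%) in libraries 4 and 5, from 1 read. Its difference between sets was 0.32 ± 0.57 (adjusted p = 0.826). For Calml3 the fitted difference of 1.48 ± 0.74 (adjusted p = 0.333) came from the WT levels alone, since KI was at 0 in both sets. With 2 and 3 libraries per genotype in a set, differences of the size of these standard errors could not be detected.

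**Figure D3:**
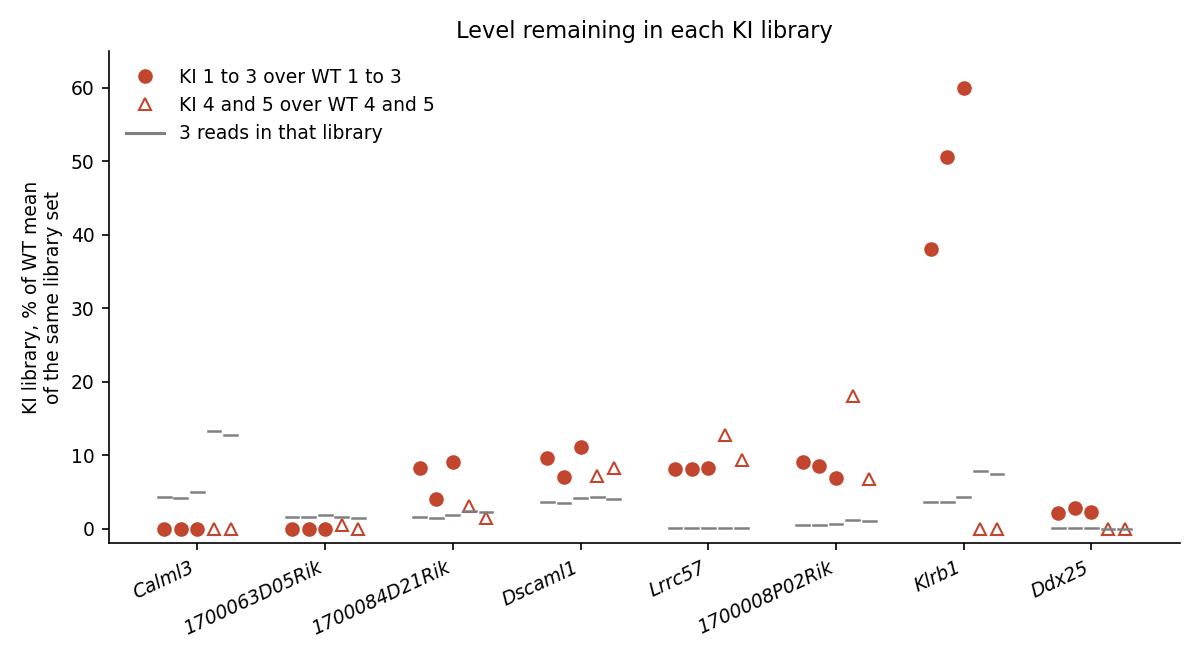
Level of each KI library as a percentage of the WT mean of the same library set, for the 7 genes and Ddx25, with filled circles for KI 1 to 3, open triangles for KI 4 and 5, and a grey dash at the percentage that 3 reads would give. Klrb1 stands at 38%, 50.6% and 59.9% in KI 1 to 3 and at 0% in KI 4 and 5, and the other 6 genes stay at 18% or less.

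**Figure D4:**
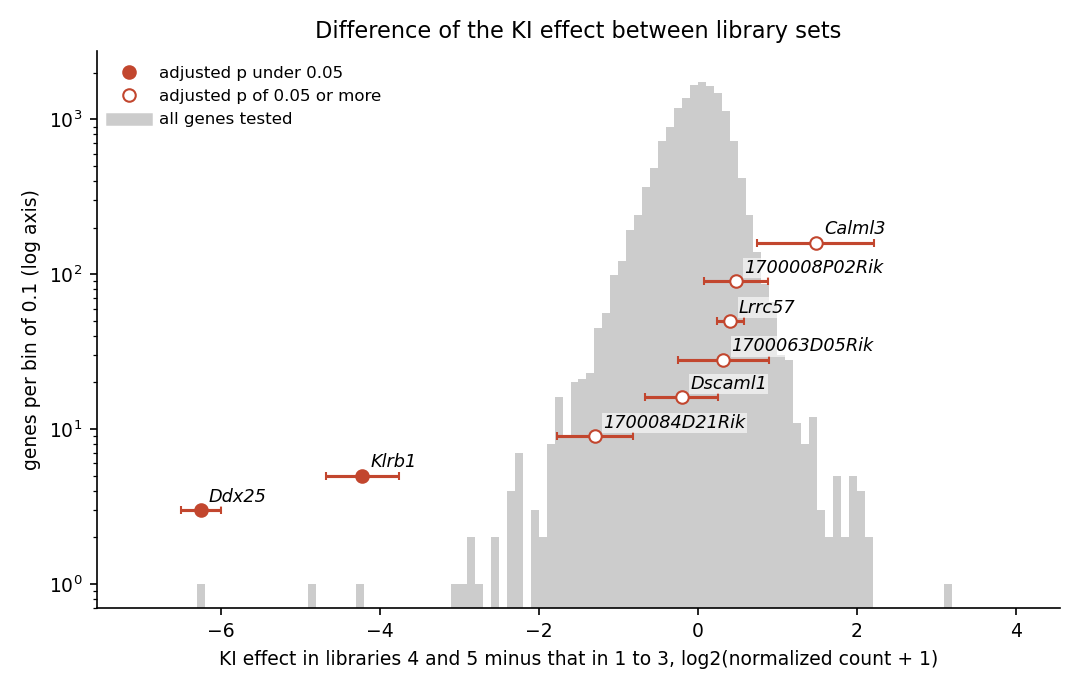
Histogram of the KI effect in libraries 4 and 5 minus that in libraries 1 to 3, on the scale of log2(normalized count + 1), for the 15389 genes tested, with the number of genes on a log axis. Points with SE bars show the 7 genes and Ddx25 at heights chosen for legibility, filled where the adjusted p was under 0.05; Klrb1 (-4.22) and Ddx25 (-6.25) are the filled points.

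Within WT alone, Lrrc57 was lower in libraries 4 and 5 than in libraries 1 to 3 by the limma test, at -0.73 ± 0.12 (log2, SE, adjusted p = 0.00167), and 7.23% (1113) of all genes tested passed in either direction. That number fell to 349 without WT 4, 605 without WT 5 and 664 without WT 1, and Lrrc57 passed in each. 1700008P02Rik (-0.91 ± 0.28, adjusted p = 0.0597), Klrb1 (-0.96 ± 0.32, adjusted p = 0.0835) and Calml3 (-1.48 ± 0.52, adjusted p = 0.0943) did not pass with limma. With edgeR's quasi-likelihood test on the reads they did, at adjusted p of 0.0107, 0.0365 and 0.012. The other 3 genes passed neither test, with differences of -0.47 to 0.16. The summed level of 12 markers of elongating and condensing spermatids was 381926 to 460468 normalized counts in WT 1 to 3 and 260527 to 270853 in WT 4 and 5, which moved the same way as these genes, and its part in them was not tested.

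Within KI alone, 2 of the 7 genes were lower in libraries 4 and 5, Klrb1 (-5.18 ± 0.32, adjusted p = 8.76e-08, limma) and 1700084D21Rik (-1.76 ± 0.34, adjusted p = 0.00204). Both were chosen on these KI values, the zeros of Klrb1 included, so the p-values are no independent support. Over all genes tested, 19.4% passed in either direction. Lrrc57 differed by -0.31 ± 0.12 (adjusted p = 0.0741). The marker sum of elongating spermatids was 65990 to 74582 in KI 1 to 3 and 38068 to 57077 in KI 4 and 5.

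Genes beside or overlapping the 7 genes were examined next, since a gene may share position and reads with its neighbour. Of 15 such genes 1 fell and 3 rose in KI, beside 8.22% and 6.13% of all genes tested. Their median difference was 0.12 (log2). None fell as far as any of the 7. Lrrc57 overlaps Haus2, a subunit of the augmin complex of the spindle, which starts on the opposite strand and shares 138 exonic bases with it, or 6.2% of the exonic bases of Lrrc57. Haus2 had a mean of 195 ± 41.5 normalized counts in WT and 203 ± 48.5 in KI (0.05 ± 0.18, log2, SE, adjusted p = 0.89). Whether strand was used in counting is not given in the sources used here, so reads in the shared bases cannot be told apart. In the 5 KI libraries, Haus2 held 147 to 250 normalized counts beside 226 to 332 of Lrrc57. The share of Haus2 reads in the remaining signal of Lrrc57 was not tested.

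The neighbours of Lrrc57 on either side were Snap23, a membrane fusion protein (-0.10 ± 0.09, adjusted p = 0.49), and Stard9, a mitotic kinesin, which rose (0.98 ± 0.22, adjusted p = 0.00441). Beside Dscaml1, Fxyd2, the gamma subunit of the sodium-potassium pump, fell by 1.23 on the log2 scale (SE 0.21, adjusted p = 0.000616), from 77 ± 7.02 to 33.5 ± 11 normalized counts. Its groups did not overlap. Cep164, a protein of the centriole on the other side of Dscaml1, was at 0.13 ± 0.17 (adjusted p = 0.648), with 0.62 in libraries 4 and 5 alone (adjusted p = 0.0188) and -0.20 in libraries 1 to 3 alone (adjusted p = 0.0535). Dscaml1 also overlaps 4833428L15Rik, annotated as antisense with 2 shared exonic bases, and the small nuclear RNA Gm22069, which lies in an intron. Neither was analysed here.

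Beside 1700008P02Rik, Pkia, an inhibitor of protein kinase A, rose (1.07 ± 0.29, adjusted p = 0.0134), from 20.2 ± 7.95 to 41.7 ± 9.93 normalized counts, and Pex2, a peroxisome assembly gene, was at 0.30 ± 0.15 (adjusted p = 0.172). Beside 1700063D05Rik, Ubash3b, a phosphatase of receptor signalling, rose (0.81 ± 0.22, adjusted p = 0.0144), and Sorl1, a sorting receptor, was at -0.12 ± 0.21 (adjusted p = 0.739). Within libraries 4 and 5 alone, with 2 libraries per genotype, Pkia (0.78, adjusted p = 0.162) and Ubash3b (0.80, adjusted p = 0.114) no longer passed. The neighbours of Calml3, 1700084D21Rik and Klrb1 did not pass. They were Asb13 and Net1, Cdc20b and Snx18, and Pzp and Clec2d, with differences from -0.54 to 0.63. Clec2d, which encodes a ligand of receptors of the Klrb1 family, passed when scaled to library totals (0.85, adjusted p = 0.0462).

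**Figure D5:**
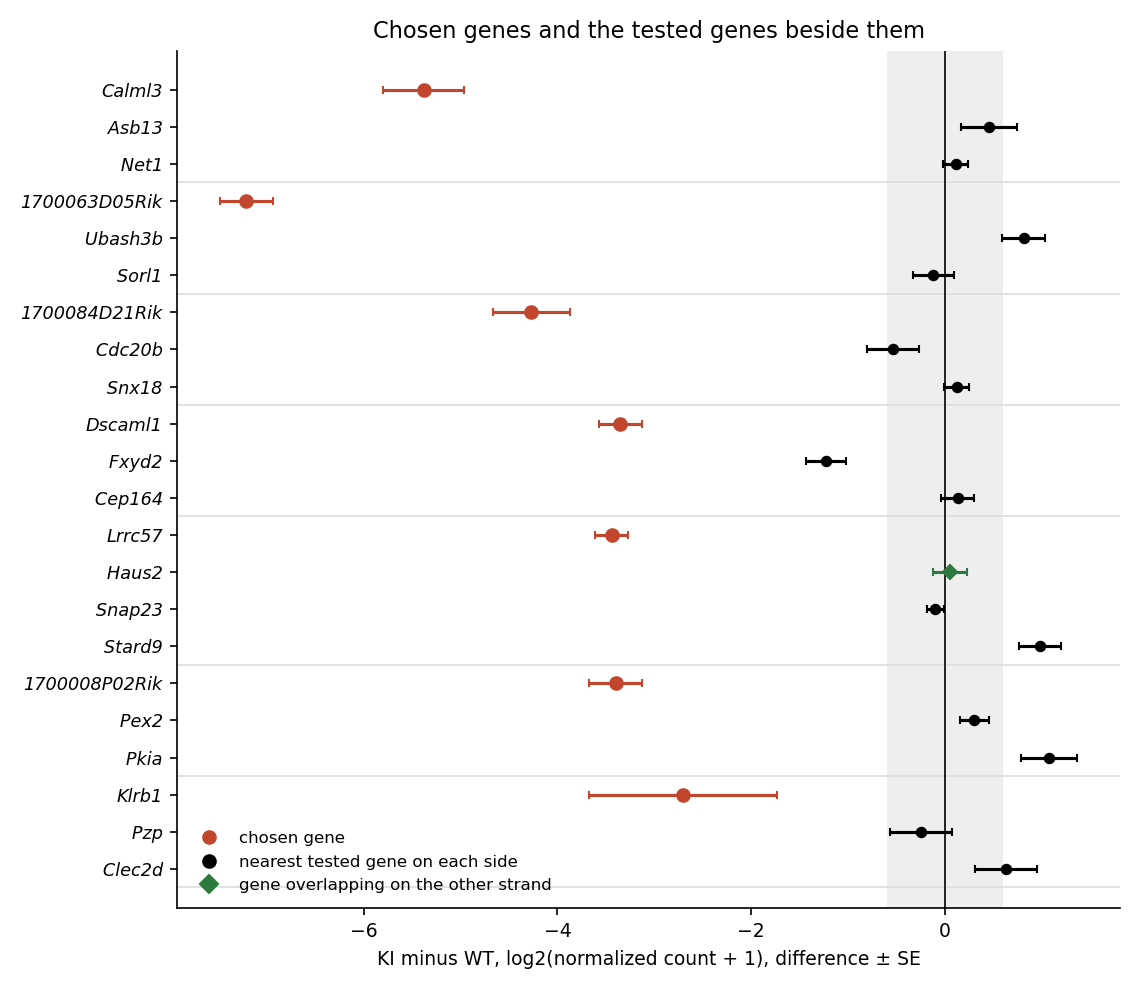
Difference between KI and WT on the scale of log2(normalized count + 1), with its SE (n = 5 per group), for the 7 genes (red), the nearest tested gene on each side (black) and the overlapping gene Haus2 (green). The grey band spans a fold change under 1.5 in either direction; the genes beside them lie between -1.23 and 1.07.

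Within 1 Mb on either side of the 7 genes there were 128 tested genes counted over the 7 windows, of which 9 (7.03%) fell and 11 (8.59%) rose, beside 8.22% and 6.13% of all genes tested. These shares are near the background. The lowest differences in these windows were those of 1700024F13Rik near Calml3 (-2.48) and 1700110K17Rik near 1700063D05Rik (-1.39), and both passed the thresholds.

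The relatives of the 7 genes were read from lists by family. Beside Calml3, the calmodulin genes Calm2 and Calm3 had WT means of 7341 and 8398 normalized counts and differences of 0.00 and -0.07 (adjusted p of 0.987 and 0.648), and neither passed. Calml4, another calmodulin-like gene, was at 0.25 ± 0.50 (adjusted p = 0.768). Of 14 tested genes for calmodulin-dependent kinases and calcineurin, 2 fell, Camk4 (-1.35 ± 0.16, adjusted p = 1.67e-05) and Camk2b (-0.98 ± 0.18, adjusted p = 0.000925), with a list median of 0.09.

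Of 13 tested adhesion genes of the DSCAM, sidekick, contactin, nectin and Cadm families other than Dscaml1, none fell and 1 rose. That gene was Sdk2 (0.71 ± 0.16, adjusted p = 0.00403), whose fold change was under 1.5 without KI 5, and Dscam itself was at 0.13 ± 0.23 (adjusted p = 0.73). Over all genes tested, 8.22% fell and 6.13% rose. Of 51 tested genes with an Lrrc symbol other than Lrrc57, 9 fell and 2 rose, with a median of 0.02. Lrrc8b (-1.65), a subunit of a volume-regulated anion channel, Lrrc18 (-1.22) and Lrrc74a (-1.20) fell furthest. Of the 8 augmin subunits none passed the thresholds, with a median of 0.01.

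Many mouse genes are still named for clones of the testis library that gave 1700063D05Rik, 1700084D21Rik and 1700008P02Rik their names. Of 281 other tested genes of this clone series, 113 fell and 1 rose, beside 8.22% and 6.13% of all genes tested. Their median was -0.48, beside 0.03 over all genes tested. The 3 genes described here had the lowest values of the series, and after them came 1700012A03Rik (-3.34), 1700009J07Rik (-3.13) and 1700020A23Rik (-3.11). Scaled to library totals, 73 of the 284 genes of the list fell and 8 rose, and the median was -0.26, where that of all genes was 0.25.

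Klrb1 was one of 4 genes with a row among 35 killer cell lectin-like receptors and Clec2 ligands. Klrg2 rose (1.28 ± 0.30, adjusted p = 0.00622), Clec2d was at 0.63 ± 0.32 (adjusted p = 0.173), and Klrg1 was below the filter. Of 17 markers of natural killer and T cells, 3 had a row. Cd3d had a mean of 10.1 normalized counts in WT and 6.64 in KI, Cd2 22.5 and 21.6, and Ptprc, a marker of all leukocytes, 18.1 and 31.6. Their sum was 33.1 to 83.3 in WT and 44.2 to 80.8 in KI. In KI 4 and 5, where Klrb1 was at 0, the sum was 49.7 to 80.8, and in KI 1 to 3 it was 44.2 to 62.8. These ranges overlap and rest on 3 genes with few reads, and the part of these cells in the Klrb1 values was not tested.

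The preparation was checked against markers of testis cells. The 12 markers of elongating and condensing spermatids also fell in libraries 1 to 3 alone and in libraries 4 and 5 alone. Their summed level over all libraries was 260527 to 460468 normalized counts in WT and 38068 to 74582 in KI. None of 12 spermatocyte markers and none of 9 tested spermatogonia markers passed, although 2 spermatocyte markers fell in libraries 4 and 5 alone. None of the 12 round spermatid markers passed over all libraries, with a median of -0.36, and 6 fell in libraries 4 and 5 alone. Their summed level did not overlap between genotypes, at 28139 to 30278 normalized counts in WT and 18048 to 25336 in KI. Of 9 macrophage markers 6 rose (934 to 1176 in sum in WT and 1511 to 1840 in KI), and of 7 endothelial markers 2 rose (1 without KI 5). Of 7 Leydig cell markers 4 rose, a number that went to 1 without WT 1, WT 3 or KI 5, 2 without WT 4, 6 without KI 4, and 7 without WT 2 or scaled to library totals. No Sertoli cell marker among 9 passed, and 2 rose in libraries 1 to 3 alone or scaled to library totals. Of the 5 tested peritubular myoid markers 1 fell and 2 rose, of which 1 rose without WT 2, KI 1, KI 3 or KI 4. Of 5 erythrocyte markers 1 fell and 1 rose, and none of them passed without WT 1. The part of these cell types in the fall of the 7 genes was not tested.

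The genes with the most similar pattern were sought among tested genes that reached a mean of 100 normalized counts in either genotype, by Pearson correlation of log2(normalized count + 1) over the 10 libraries. The libraries share depth, genotype and library set, so these values describe likeness only. Lrrc57 was most like 4933411K16Rik and Smcp, a protein of the sperm mitochondrial capsule, both at r = 0.999. 1700084D21Rik was most like Smkr-ps (0.989) and Prm3, a protamine-family gene (0.988), and 1700008P02Rik was most like 1700009N14Rik and Klhl10, an adaptor of a ubiquitin ligase in spermatids, both at 0.996. Calml3 was most like Wbscr25 (0.998) and Isg20l2 (0.997), Dscaml1 like Bri3bp and 1700001L05Rik (both 0.992), and 1700063D05Rik like 1700029J07Rik (0.994) and Vps26a (0.993), a subunit of retromer. Klrb1 had lower values, with H2al1g, a histone variant, at 0.967 and Pdia3, a disulfide isomerase, at 0.956.

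The correlation does not measure the size of the difference. Vps26a and 1700029J07Rik had differences of -0.87 and -0.63 between KI and WT (log2), beside -7.21 for 1700063D05Rik, and Bri3bp had -1.51 beside -3.35 for Dscaml1. Pdia3, the second gene for Klrb1, was at -0.19. Wbscr25 was at -3.24 beside -5.38 for Calml3, and Smcp at -2.74 beside -3.44 for Lrrc57.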

How the data were processed

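RNA of germ cells from 5 WT and 5 KI mice was sequenced as 1 paired-end library per mouse after oligo(dT) selection. The authors aligned reads to mm10 with STAR, quantified genes with Partek (RefSeq annotation) and normalized them for DESeq2. The deposited values are a signal, gene counts divided by size factors. Within each library, 100% of values under 5000 reads lay within 0.1 read of a whole number of reads, so reads were recovered. Replicates are separate mice.

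The 7 genes, the gene lists and the tests were chosen with earlier results of these data known. limma (version 3.58.1, R 4.3.3, variance trend) was run on log2(value + 1) for genes passing filterByExpr, with Benjamini-Hochberg adjustment over all genes tested, and calls needed a fold change of 1.5 or more and an adjusted p under 0.05. Library sets were compared by the product of genotype and set. edgeR's quasi-likelihood test (version 4.0.16) on the recovered reads called 950 genes up and 1293 down, and DESeq2 (version 1.42.0) was another alternative. The KI against WT fits of limma, edgeR and DESeq2, and limma's product of genotype and set, were checked on simulated counts. The comparisons within a genotype, the edgeR tests of library sets and the replicate block were not. Intervals of ratios were exact binomial intervals at 95% on reads, allowing for depth, and cover counting error only. A gene at 0 was set at 3 reads per library.

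Deviations from the genotype means correlated between libraries with the same replicate number in the labels, at 0.306, 0.105, 0.28, 0.216 and 0.462. For 4 of the 5 WT libraries, the KI library with the highest correlation was the one with the same number. Such libraries also share a library set, so the difference between sets is part of these values. What a shared number stands for is not given in the labels, and the main fits did not use it.

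Named were the 7 genes, Ddx25, overlapping and nearest tested genes, the 2 genes most correlated with each (mean of 100 or more), the list members closest in name and up to 3 called genes per list. Genes with a ratio at or under that of any of the 7 genes were to be named too. As Klrb1 made these 305, only those up to the other 6 members were named, a limit set after the values were seen, as were the windows of 1 Mb, the lowest genes in them and the comparisons within one genotype. Positions are those deposited, read with GENCODE (GRCm38). Start sequences came from RefSeq (GRCm38.p6).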

Additional observations from a re-analysis of the deposited data

Results flagged for a closer look

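The KI effect on Klrb1 differed between library sets: it was lower by 4.22 on the log2 scale in libraries 4 and 5 than in libraries 1 to 3 (-4.22 ± 0.46, SE, adjusted p = 0.000402, limma). Klrb1 was lower in KI in both sets, and KI 4 and 5 held no read of it, values on which the gene was also chosen.

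In a check of each gene's 5 libraries per genotype for 1 library far from the others, 5 of 43 groups were marked, and chance marks about 1 in 20. Of the 7 genes, 1700063D05Rik was marked in KI for KI 4 (0.962 normalized counts, 1 read) against 0 in the other 4. With 4 libraries at 0, any read in the remaining library is marked, so this mark carries no weight. Lrrc57 was marked in KI for KI 5 (226, against 306 to 332). Among the genes beside them, Snap23, a neighbour of Lrrc57, was marked for the same library, KI 5 (284, against 335 to 355). Cdc20b was marked in WT for WT 2 (31.2, against 20.1 to 23) and Ubash3b in WT for WT 3 (78.5, against 34.8 to 42.1).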

How the results depend on the processing

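The 7 genes stayed lower in KI in all 154 repeats of their fold changes (143 moved by less than the spread between replicates). Their median moved from -3.44 to -4.03 with a pseudocount of 0.1 and to -4.49 in libraries 4 and 5 alone. Over all genes, 2145 rose and 789 fell when scaled to library totals, which moved the median of all genes to 0.25, 471 rose in libraries 4 and 5 alone, and 1485 rose and 2044 fell with no fold change threshold. With the replicate block, all 7 genes were called and 1199 genes differed between library sets, against 38 without it. That count was 157 with library totals and 2 to 429 with 1 library left out: 17, 2, 62, 2 and 261 without WT 1 to 5, and 3, 4, 2, 429 and 60 without KI 1 to 5. The Klrb1 difference kept its call in each of these, and lost it with a pseudocount of 10. The block changed no other call on the 7 genes or their neighbours. The causes were not tested. The bound of 7.7-fold for Calml3 in libraries 4 and 5 came from setting KI at 3 reads per library. The exact binomial interval on the same reads was narrower, with an upper limit of 8.27% of WT, and covers counting error only.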
